A study of Caenorhabditis elegans with 2 samples.

Results

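The genes described here encode the nuclear pore and the machinery that carries cargo through it in the nematode Caenorhabditis elegans. They are the protein-coding genes whose symbol starts with npp-, imb-, ima-, xpo- or ran-, and this rule, which uses no measured value, gave 41 of 19973 coding genes. Of these, 26 are npp genes (nuclear pore proteins), 6 are importins, 4 are exportins and 5 belong to the Ran cycle. Their promoters were read in ChIP-seq lists of chromatin bound by the transcription factor SOX-4, whose Sox family binds DNA through an HMG box. Both samples came from whole hermaphrodite L1 larvae of strain OP517, genotype unc-119(tm4063) III; wgIs517, whose transgene adds GFP and FLAG to the C terminus of SOX-4. Larvae were starved after bleaching to synchronize them and collected 6 hours later, and an antibody against GFP pulled down the chromatin. Both biological replicates (n = 2) form 1 group, so all animals carried the unc-119 allele and the transgene, and untagged animals were not analysed here. Because whole larvae were used, a weak signal in many cells and a strong signal in few cells cannot be told apart.

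The nuclear pore complex is a ring of nucleoporins set into the nuclear envelope. A scaffold of Y complexes and an inner ring holds nucleoporins rich in phenylalanine-glycine (FG) repeats, which fill the channel. Importins and exportins bind cargo and cross the channel, and the small GTPase Ran, in its GTP form in the nucleus, releases import cargo and is needed to load export cargo. When C. elegans cells divide, pores are taken apart and rebuilt, and several of these genes were first studied in the early embryo.

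Each gene was given a promoter window that began 1000 bp upstream of the annotated gene 5′ end and stopped 200 bp inside the gene. A region counted for a gene when its summit, the position of highest enrichment, lay in that window. Of the 4 lists used, 3 held 30000 regions each, called on replicate 1, on replicate 2 and on both together (pooled), with background regions included. The remaining list was the authors' optimal set of 1497 peaks, which were the 1497 pooled regions of highest signal, the authors' own value for each region. Optimal signal started at 51.3 and its median was 76.2. Read depth is unknown, since the lists hold no read counts.

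Nuclear pore and transport promoters held regions of the pooled SOX-4-eGFP list, which includes background, more often than other coding promoters. Those regions were also stronger. A pooled region lay in the window of 26 of 41 members (63.4%, exact 95% interval 46.9 to 77.9), against 37.7% of 19932 other coding genes. Of those 26 members, 11 also had an optimal peak there (42.3%, exact interval 23.4 to 63.1), against 14.9% of the 7517 other coding genes that hold a pooled region. Over all genes, whether or not they hold a region, the shares with an optimal peak were 11 of 41 (26.8%) and 5.63%. These shares describe the lists and were not tested, because 1 group of 2 replicates allows no test over samples. The intervals cover the counting of genes only. Because the pooled list includes background, a pooled region does not by itself show binding. For the 15 members below the optimal list, the authors' −log10 q-value ran from 0.0713 at npp-5 and 0.0877 at xpo-1 to 2.33 at npp-20. At the 11 optimal peaks it ran from 2.407 at imb-1 to 2.989.

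Among genes holding a pooled region, the strongest region had a median signal of 44.0 over the 26 members and 21.4 over the 7517 other genes. The middle of the members' range, between the lower and upper quartile, was 29.9 to 72.0, and that of the other genes was 16.4 to 33.2. Of the 26 members, 23 lay above the other genes' median. The strongest of the 26 members had a signal of 164.4, between percentiles 97 (144.3) and 98 (171.7) of the other genes. The strongest of the 7517 other genes reached 500.8, a maximum taken over far more genes. Among genes with an optimal peak, the median was 76.4 for the 11 members and 85.5 for the 1122 others.

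**Figure D1:**
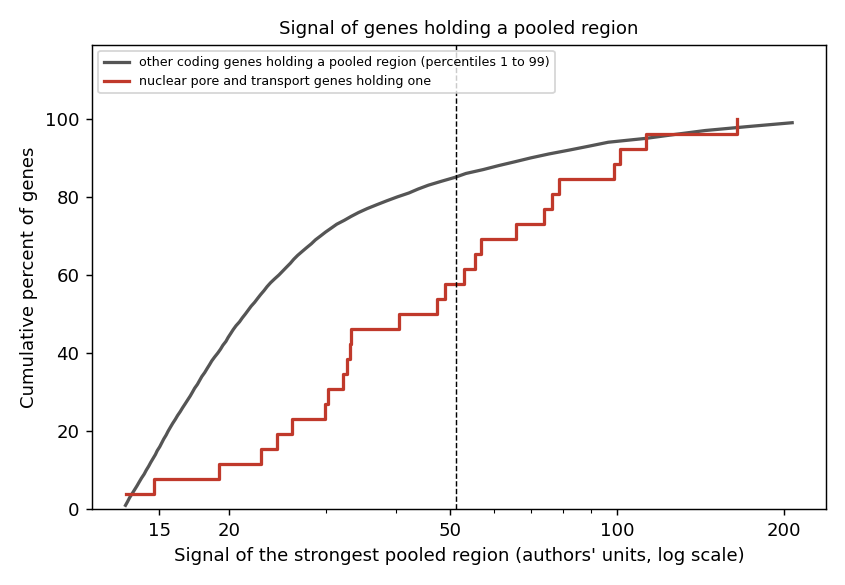
Cumulative percent of genes (vertical axis) by the signal of the strongest pooled region in the promoter window (horizontal axis, authors' units, log scale), for 26 nuclear pore and transport genes (red steps) and 7517 other coding genes (grey line, without the lowest and highest percent). The dashed line is the lowest optimal signal, 51.3. The red steps lie to the right of the grey line over most of the range, with medians of 44.0 and 21.4.

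The members with an optimal peak were spread over nearly every part of the pore and the transport cycle. Among npp genes the count was 7 of 26, of which 15 held a pooled region. Among importins, exportins and Ran-cycle genes it was 4 of 15, of which 11 held a pooled region. Over other coding genes, 37.7% held a pooled region and 5.63% had an optimal peak. Peaks lay at 3 of the 4 genes filed here under the inner ring. None lay at the 4 filed under the FG channel, which are npp-1, npp-4, npp-10 and npp-11. Each gene was filed under 1 class only, so a class need not hold every gene that fits its name. With 1 to 7 genes in each structural class of the pore, these counts describe the genes and give no order of classes.

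**Figure D2:**
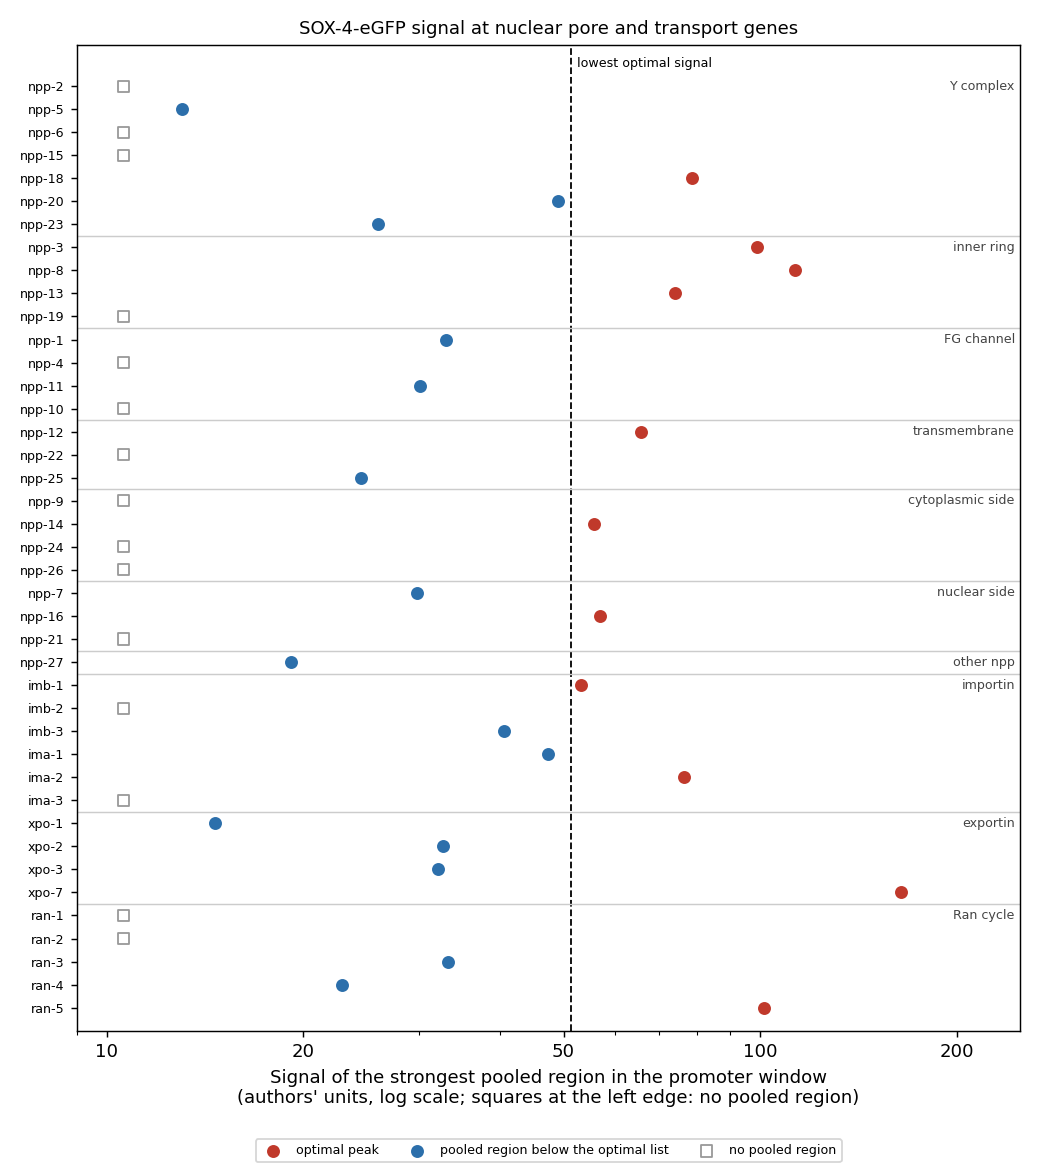
Signal of the strongest pooled region in the promoter window (horizontal axis, authors' units, log scale) for each of the 41 genes (vertical axis, ordered by role). Red circles are optimal peaks, blue circles are pooled regions below the optimal list, and open squares at the left edge mark the 15 genes with no pooled region. The dashed line is the lowest optimal signal, 51.3, and xpo-7 stands farthest to the right at 164.4.

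The sequence around the summit is shown for the 6 members with an optimal peak on chromosomes II to V, in order of signal. Of these, 4 hold a word found at another member. Each line gives the summit and 50 bp on either side, 5′ to 3′ on the strand of the gene, from the RefSeq copy of WBcel235 (ce11). Capitals mark stretches of at least 11 bases that also occur, on either strand, in the same window of another member.
xpo-7, chrV:10526062-10526162, minus strand: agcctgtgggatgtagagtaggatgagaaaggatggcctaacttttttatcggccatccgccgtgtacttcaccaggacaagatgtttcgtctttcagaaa
npp-8, chrIV:1595962-1596062, minus strand: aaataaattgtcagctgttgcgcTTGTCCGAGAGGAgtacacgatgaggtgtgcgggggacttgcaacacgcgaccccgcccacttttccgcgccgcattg
ran-5, chrII:6047777-6047877, plus strand: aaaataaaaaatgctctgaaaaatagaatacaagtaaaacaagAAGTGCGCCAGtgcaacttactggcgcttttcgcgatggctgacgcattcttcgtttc
npp-3, chrII:11874790-11874890, minus strand: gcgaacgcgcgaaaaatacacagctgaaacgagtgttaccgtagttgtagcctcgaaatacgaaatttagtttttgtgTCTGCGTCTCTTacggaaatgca
npp-18, chrIII:13296642-13296742, plus strand: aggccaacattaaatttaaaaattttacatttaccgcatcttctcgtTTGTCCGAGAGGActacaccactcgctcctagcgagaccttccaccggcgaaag
npp-16, chrIII:11915826-11915926, plus strand: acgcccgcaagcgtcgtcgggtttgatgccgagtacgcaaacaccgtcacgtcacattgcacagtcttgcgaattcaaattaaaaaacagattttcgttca

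Of the inner ring, which links the scaffold to the channel, 3 genes had an optimal peak. The strongest was at npp-8, the Nup155 gene, with a pooled signal of 112.9, a signal of 60.4 in replicate 1 (rank 366) and 54.4 in replicate 2 (rank 435). At npp-3, the Nup205 gene, the pooled signal was 98.9, with 54.8 in replicate 1 (rank 428) and 45.3 in replicate 2 (rank 585). At npp-13, the Nup93 gene, the pooled signal was 74.0, with 32.8 in replicate 1 (rank 1140) and 41.8 in replicate 2 (rank 697). All 3 were among the 1497 strongest regions of both replicates. The other inner ring gene, npp-19 (Nup35), had no pooled region and only weak regions in the replicates, at rank 21637 in replicate 1 and 7412 in replicate 2.

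The Y complex forms the outer scaffold of the pore. Of the 7 genes filed under it, npp-18 (SEH1) had the only optimal peak, with a pooled signal of 78.6. The signal there was 37.8 in replicate 1 (rank 879) and 48.1 in replicate 2 (rank 541). Close below the optimal list was npp-20 (SEC13, which also serves in COPII vesicles), whose pooled signal of 49.0 ranked 1620. That gene ranked 1341 in replicate 1 and 1392 in replicate 2, inside the strongest 1497 of each. The summits lay apart, at 90 bp upstream in replicate 1 and 277 bp upstream in replicate 2. A weaker region was at npp-23 (Nup43), with a signal of 25.99, and npp-5 (Nup107) held 1 near the bottom of the pooled list, at rank 29462. No pooled region lay at npp-2 (Nup85), npp-15 (Nup133) or npp-6 (Nup160).

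The case of npp-6 differed from the other genes without a pooled region. Its window held a region of signal 49.2 in replicate 1, at rank 524, and of 35.0 in replicate 2, at rank 976, with summits 404 bp and 397 bp upstream of the 5′ end. The nearest pooled summit was 11498 bp downstream of the 5′ end. Of 1014 regions among replicate 1's strongest 1497 that overlapped replicate 2's strongest 1497, only 7 overlapped no pooled region, and the region at npp-6 was among these. Its count as a gene without a peak therefore rests on the pooled list alone, and why that list lacks the region was not tested. The 5′ end of spd-5, which encodes a centrosome scaffold protein, lies 174 bp from that of npp-6 on the opposite strand. Both replicate summits therefore lay past the 5′ end of spd-5 and not between the 5′ ends of these genes.

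At the remaining parts of the pore, each side of the envelope had a gene with an optimal peak. Among transmembrane nucleoporins, npp-12 (gp210) had a pooled signal of 65.8, with 46.4 in replicate 1 (rank 592) and 31.7 in replicate 2 (rank 1180). On the cytoplasmic side, npp-14 (Nup214) had a pooled signal of 55.6, with 29.8 in replicate 1 (rank 1372) and 29.6 in replicate 2 (rank 1352). On the nuclear side, npp-16 (Nup50) had a pooled signal of 56.8, with 43.1 in replicate 1 (rank 681) and 16.03 in replicate 2 (rank 5720). The first 2 were strong in both replicates, while the peak at npp-16 was strong in replicate 1 only. At npp-14 the replicate summits lay apart, at 282 bp upstream in replicate 1 and 145 bp upstream in replicate 2.

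Pooled regions below the optimal list lay at the transmembrane gene npp-25 (TMEM33; signal 24.5), at npp-7 (Nup153; 29.8), and at the channel genes npp-1 (Nup54; 33.1) and npp-11 (Nup62; 30.2). The gene npp-27, which RefSeq annotates with a C3HC-type domain, had 1 of signal 19.2. No pooled region lay at npp-4 (Nup58) or npp-10, which encodes both Nup98 and Nup96, nor at npp-22 (NDC1), npp-9 (Nup358), npp-24 (Nup88), npp-26 (GLE1) or npp-21 (TPR). Of these 7, npp-4, npp-10, npp-24, npp-26 and npp-21 had no region in either replicate's list. At npp-22 the replicate ranks were 2357 and 3756, and npp-9, like npp-2 of the Y complex, had a region in replicate 2 alone, at ranks 10386 and 17175.

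Nuclear import receptors held optimal peaks at 2 of 6 genes, against 5.63% of other coding genes. Importin beta, encoded by imb-1, carries cargo through the channel, and importin alpha is the adaptor that binds the classical nuclear localization signal. At ima-2, an importin alpha gene, the pooled signal was 76.4, with 54.9 in replicate 1 (rank 423) and 23.1 in replicate 2 (rank 2239). At imb-1 the pooled signal was 53.2, with 35.4 in replicate 1 (rank 976) and 14.2 in replicate 2 (rank 8114). Both peaks were among the strongest 1497 of replicate 1 and outside those of replicate 2. The reverse held at ima-1, another importin alpha gene just below the optimal list (signal 47.4, pooled rank 1710), which ranked 4529 in replicate 1 and 1284 in replicate 2. At imb-3, a gene of the importin beta family, the signal was 40.6, and imb-2 (transportin) and ima-3, an importin alpha gene, held no pooled region. A region lay at imb-2 in replicate 2 alone (rank 8304) and at ima-3 in replicate 1 alone (rank 20117).

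All 4 exportin genes held a pooled region, against 37.7% of other coding genes, and xpo-7 had the strongest peak of all 41 genes. Its pooled signal of 164.4 ranked 165 of 30000, with 77.5 in replicate 1 (rank 220) and 83.6 in replicate 2 (rank 167). RefSeq annotates its product as exportin-7. The other exportin genes were below the optimal list. The general export receptor of leucine-rich export signals is encoded by xpo-1, whose signal of 14.7 ranked 24154. The signals at xpo-2 (exportin-2, which returns importin alpha to the cytoplasm) and xpo-3 (exportin-T, the tRNA exporter) were 32.7 and 32.1. The window of xpo-1 held no region in replicate 2, and that of xpo-3 held none in replicate 1.

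In the Ran cycle, the optimal peak was at ran-5, whose product has a Ran-binding domain, and not at the GTPase itself. The pooled signal at ran-5 was 101.3, with 55.3 in replicate 1 (rank 412) and 42.9 in replicate 2 (rank 661). Weaker pooled regions lay at ran-3, the RCC1 exchange factor gene (33.2), and at ran-4, the NTF2 gene that returns Ran to the nucleus (22.9). The genes ran-1 (the Ran GTPase) and ran-2 (RanGAP) held no region in any of these lists.

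Most of these peaks ranked high in both replicates, and the exceptions among the optimal peaks ranked lower in replicate 2. All 11 optimal peaks overlapped a region of replicate 1's strongest 1497, at ranks from 220 to 1372. Of these, 8 also overlapped replicate 2's strongest 1497, at ranks from 167 to 1352. The exceptions were ima-2, npp-16 and imb-1, at ranks 2239, 5720 and 8114 in replicate 2. By window, 13 members had a region among the strongest of replicate 1 (31.7%), against 5.42% of other coding genes, and 11 had one in replicate 2 (26.8%), against 5.34%. In both replicates at once there were 10 (24.4%), against 4.02% of other coding genes. These 10 were 8 of the members with an optimal peak plus npp-6 and npp-20. Since both replicates entered the optimal list, a high rank in each is in part a product of how the list was made.

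**Figure D3:**
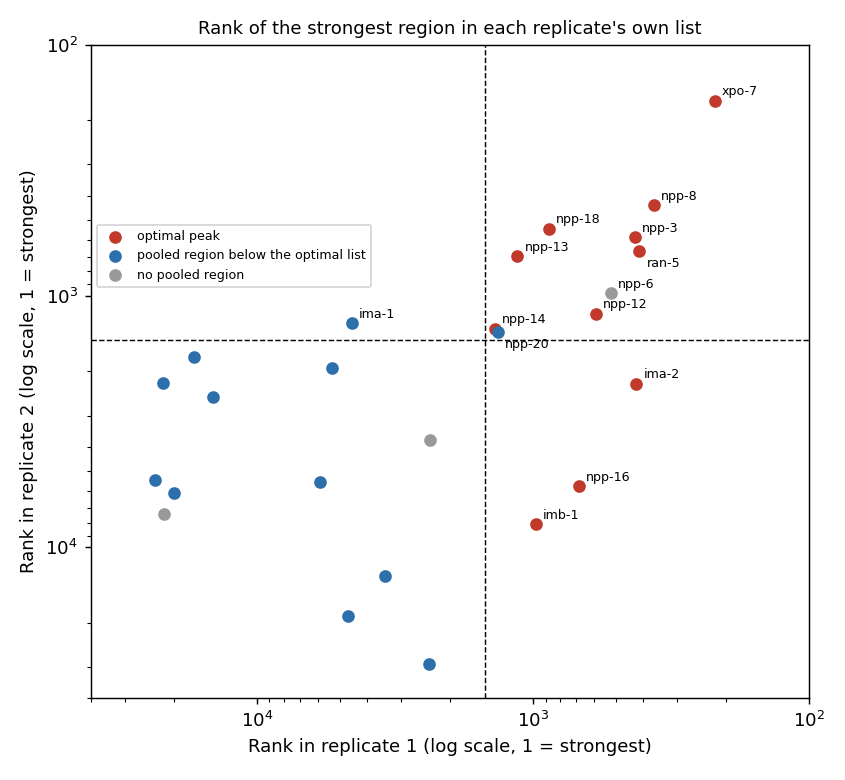
Rank of the strongest region in the promoter window in replicate 1 (horizontal axis) and replicate 2 (vertical axis), both log scales with the strongest towards the upper right, for the 26 genes with a region in both replicates' lists. Dashed lines mark rank 1497, and colours give the gene's status in the pooled list. At the upper right are 8 genes with an optimal peak, npp-20 and, in grey, npp-6. The labelled genes ima-2, npp-16 and imb-1 are strong in replicate 1 only, and ima-1 in replicate 2 only.

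The summits lay close upstream of the genes. In the 26 members with a pooled region, the strongest summit was a median of 249 bp upstream of the 5′ end, and in 19 (73.1%) it was within 400 bp upstream, against 45.7% of other coding genes holding a pooled region. For optimal peaks the same counts were 10 of 11 members (90.9%) and 69.8% of 1122 other genes. At npp-3, npp-16 and imb-1 the summit was 52 bp upstream, at npp-18 161 bp, at npp-8 188 bp and at xpo-7 204 bp. The exception beyond 400 bp was npp-12, at 563 bp. Except at ran-5, all 11 summits lay outside coding genes, and that of ran-5 fell in a coding exon of the neighbouring gene R12C12.6.

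**Figure D4:**
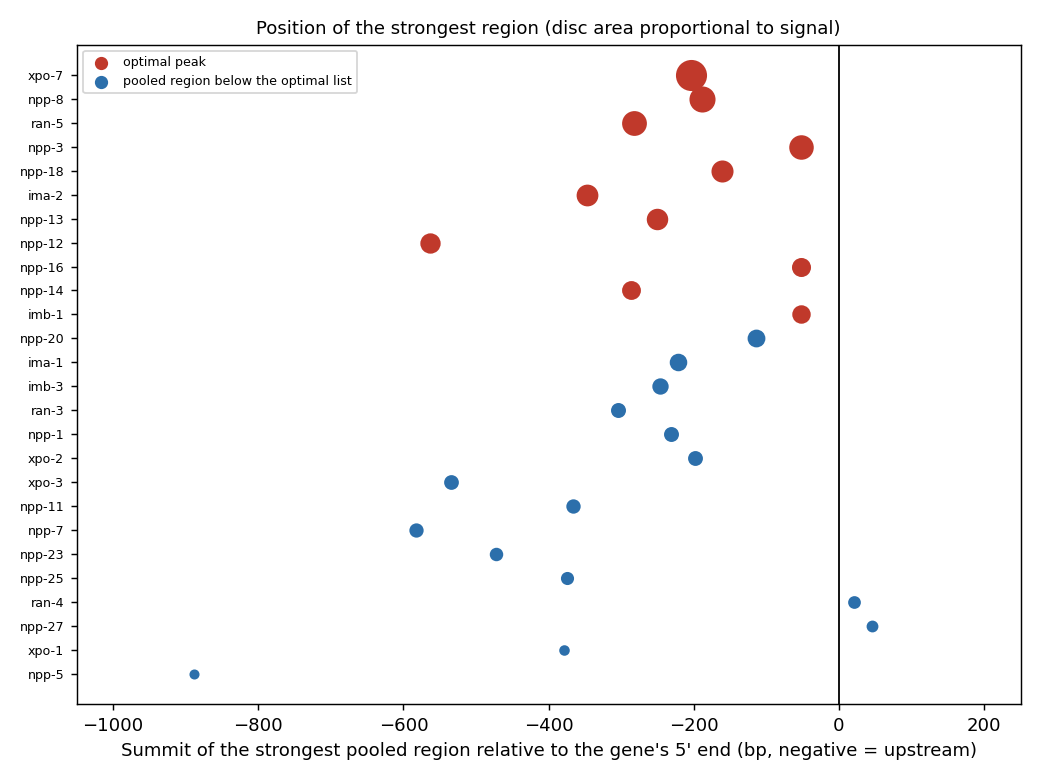
Summit of the strongest pooled region relative to the gene 5′ end (horizontal axis, bp, negative upstream) for the 26 genes holding a pooled region (vertical axis, ordered by signal), with disc area proportional to signal. Red discs are optimal peaks and blue discs are pooled regions below the optimal list. All red discs but that of npp-12 lie within 400 bp upstream of the 5′ end.

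Most of these genes have their nearest upstream neighbour on the opposite strand. No limit was set on the distance to that neighbour, which ran from 148 bp at imb-1 to 7257 bp at npp-19. The nearest coding gene upstream, leaving out overlapping genes, was on the opposite strand for 30 of 41 members (73.2%) and for 45.4% of other coding genes. Of other coding genes, 8.65% of those in this divergent layout had an optimal peak, against 3.12% of those with the upstream neighbour on the same strand. Among divergent genes 22 of 30 members held a pooled region and 10 had an optimal peak, while of other divergent genes 41.9% held a pooled region and 8.65% had an optimal peak. Among those divergent genes that held a pooled region, the share with an optimal peak was 45.5% of the members and 20.6% of the others. Of the 11 members whose upstream neighbour is on the same strand, 4 held a pooled region and 1, ima-2, had an optimal peak, and for other such genes the shares were 34.2% and 3.12%. The layout was compared after the values were seen, and its part in the result was not tested beyond these shares.

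Of the optimal peaks, 7 of 11 (63.6%) also lay in the window of another coding gene, as for 57.1% of other genes with a peak. At npp-3 the partner was top-2, a topoisomerase gene, whose 5′ end lay farther from the summit, at 308 bp. At npp-16 (ndab-1, 164 bp) and imb-1 (mfsd-13.1, 97 bp) the partner was also the farther gene. The neighbour was the nearer gene at the 4 others: hda-11, a histone deacetylase gene, lay 72 bp from the xpo-7 summit, cel-1, the mRNA capping enzyme gene, 50 bp from that of npp-14, and T23H2.3 276 bp from that of npp-12. The summit at ran-5 lay 40 bp inside R12C12.6. With each summit given to the nearest coding 5′ end alone, 7 of 18 members with a pooled region had an optimal peak (38.9%), against 12.3% of other genes.

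The peaks at npp-8 and npp-18, genes of the inner ring and of the Y complex on different chromosomes, shared the 13 bases TTGTCCGAGAGGA, in the same orientation relative to each gene. The word starts at base 24 of the npp-8 line and base 48 of the npp-18 line. It occurred on either strand at 28 of 1497 optimal summits (1.87%) and at 8 of 28503 other pooled summits (0.0281%). The 28 include npp-8 and npp-18, where the word was found, so this contrast is tilted towards the optimal list. Both peaks were also narrow: they spanned 99 bp at npp-8 and 103 bp at npp-18, and that at xpo-7 172 bp, while the other 8 members had the commonest width, 396 bp. Of all optimal peaks 18.7% were narrower than 396 bp, and those had a higher median signal, 165.4 against 69.3.

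A second word, the 12 bases in capitals in the npp-3 line, joined npp-3 and imb-1. It was at 17 optimal summits (1.14%) and at 47 other pooled summits (0.165%). Another, AAGTGCGCCAG, joined ran-5 and npp-14, and was likewise at 17 optimal summits (1.14%), with 3 others (0.0105%). A further word, not printed, was shared by npp-12 and ima-2. Over the 55 pairs of members the longest shared word had a median of 7 bases, and 51 pairs shared fewer than 11. These words were found by comparing the members' own sequences and are descriptions, not sites of any factor. Each count at optimal summits includes the members in which the word was found. No word of that length was shared with the other members at xpo-7, npp-16 or npp-13.

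On both strands, 6 motifs were searched in the summit and the 50 bp flanking it on either side, and none was at more than 4 of the 11 members. The Sox core WWCAAWG (W is A or T) was at 0 of 11, which allows a share of up to 27.3%, and at 11.2% of all optimal and 15.1% of other pooled summits. The shorter core ACAAT was at 4 of 11 (npp-8, npp-12, imb-1 and ima-2), against 23.2% of all optimal and 29.0% of other pooled summits. GAGAG was at npp-18 and npp-8, in both as part of the word they share, and at 36.1% of optimal and 13.3% of other summits. The E-box CANNTG, which includes CACGTG, was at npp-3, npp-8 and npp-14 and at 38.7% of optimal and 30.0% of other summits. CACGTG itself was at 0 of 11 members, which allows up to 27.3%, and at 5.41% of optimal summits, and CCGCCC was at npp-8 and at 5.01%. The median GC content of these windows was 45.5% for the members, from 33.7% at npp-12 to 57.4% at npp-8, and 44.6% for all optimal and 31.7% for other pooled summits.

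By chromosome, 13 members are on I, 8 each on II, III and IV, 4 on V and none on X. Optimal peaks were at 5 of the 10 members holding a pooled region on I, 2 of 4 on II, 2 of 3 on III, 1 of 6 on IV and 1 of 3 on V. Among other coding genes holding a pooled region, the share with an optimal peak was lower on X, at 10.5%, than on the autosomes, where it ran from 11.7% on V to 19.6% on II.

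Among 29 genes of related pathways, 13 held a pooled region (44.8%) and 6 had an optimal peak (20.7%), where the shares over coding genes outside the nuclear pore and transport families were 37.7% and 5.63%. Of 11 nuclear envelope genes, 4 held a region (36.4%, near the share over coding genes) and 2 had a peak: lem-2, a LEM-domain protein of the inner membrane (signal 88.2), and baf-1, the barrier-to-autointegration factor that binds chromatin to it (61.1). No pooled region lay at lmn-1, the lamin gene, or at mel-28, whose product seeds pore assembly on chromatin. Of 14 mRNA export genes, 6 held a region and 3 had a peak. The strongest of these, at thoc-5 of the THO complex (276.9, pooled rank 43), exceeded every nuclear pore and transport gene and ranked 34 in replicate 1 and 59 in replicate 2. The others were thoc-7 (83.7) and nxf-1, the main mRNA export receptor (51.6), which ranked 741 in replicate 1 and 24922 in replicate 2. Of 4 SUMO pathway genes, 3 held a region and ubc-9, the conjugating enzyme gene, had a peak (66.2).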

How the data were processed

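Regions came from 4 narrowPeak lists on ce11. Per the file notes, 3 were derived from the alignment of replicate 1, of replicate 2 and of both, each with 1 further file whose kind the notes do not name, and the optimal list, named for irreproducible discovery rate thresholding, came from these 3. Peak caller, version and threshold: not given in the sources used here. Each region carries a signal and a −log10 q-value, as the authors deposited them. Signal served for ranking and description inside each list. The −log10 q-value is printed for some members and was not used for any count or ranking. Lists on ce10 were not used. A possible control experiment that the labels name was not analysed here.

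Gene positions came from Ensembl release 115 for WBcel235, the assembly of ce11. Symbols came from RefSeq, matched by WormBase identifier for all 41 members. Ensembl names 40 of them alike, and xpo-7 carries its symbol in RefSeq only. Members, lists, motifs and windows were chosen with earlier results of these data known. Members with an optimal peak are given with their signal and rank in each replicate, those with a weaker pooled region with their signal, and the rest by name. Genes outside the family are named if they share a member's peak, had an optimal peak in the related lists, or were singled out after their values were seen (spd-5, lmn-1 and mel-28). Read depth is unknown, because the lists hold no counts of reads. No test was made, so no p-value is given. Intervals printed beside shares are exact (Clopper-Pearson) at 95%, and the limit beside a count of 0 is 3 counts of the total. The window assignment was tested on simulated data first. Sequence of chromosome I is not printed. The layout of neighbours and the shared words were added after the values were seen. Alternatives covered the window, transcript 5′ ends, overlap, nearest gene, a stricter list, each replicate alone, the matching of replicates, the motif window and Ensembl names. Scripts ran in Python 3.11.15 with pandas 2.3.3, scipy 1.17.1, numpy 2.4.6 and, for the plots, matplotlib 3.10.9.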

Additional observations from a re-analysis of the deposited data

How the results depend on the processing

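Among genes holding a region, the share with an optimal peak was higher in the members than in other coding genes under every alternative for which both shares were computed. Counting only the optimal peaks in the stronger part of the list, above its median signal, left 6 members with a peak in place of 11, or 23.1% of those holding a pooled region, against 8.94% of other genes. Giving each summit to the nearest coding 5′ end alone left 7. Under the other alternatives the number with an optimal peak was between 10 and 13, the number with a pooled region between 23 and 30, and the share between 36.7% and 44.8%, where other genes ranged from 13.8% to 17.9%. With replicate 2's list alone 11 of 30 members had a region among the strongest 1497, and with replicate 1's list alone 13 of 29. The median signal ranged from 33.2 in the wider window to 47.4 in the narrower, and with Ensembl names alone, an alternative added after the data were seen, 10 of 25 members had a peak. Of the 11 optimal peaks, 7 were in both replicates' strongest regions when summits had to lie within 100 bp, in place of 8. Within 100 bp of the summit, WWCAAWG was at 1 of 11 members (23.4% of all optimal summits), CANNTG at 6 (58.7%) and CACGTG at 1 (8.62%). No paired analysis was possible because the samples form 1 group and no test was made. With 1 to 7 genes in a structural class, these lists cannot order the classes.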

Other observations

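Some members are neighbours on the chromosome. On chromosome III, ran-2 starts 479 bp after npp-15 on the same strand, and neither held a region in any list. On chromosome I, imb-3 and xpo-2 are 3559 bp apart on the same strand, and each held its own pooled region below the optimal list, of signal 40.6 and 32.7.

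Some members had more than 1 pooled region in the window, 7 of 41 in all. At ima-1 there were 3, of which the strongest was 222 bp upstream with a signal of 47.4 and the nearest to the 5′ end, 23 bp upstream, had a signal of 17.3.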
